A study of Mus musculus with 7 samples.

Results

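The 10 genes described here encode the inducible parts of the machinery that cuts, transports and loads peptides for MHC class I: Psmb8, Psmb9, Psmb10, Psme1, Psme2, Tap1, Tap2, Tapbp, Erap1 and Nlrc5. They were chosen by gene symbol from known function, but with earlier results of these data known. All 10 were found among the 24421 genes of the count table. Polyadenylated RNA was sequenced from 7 mouse tumours taken at week 4, each from its own mouse. The mice of 4 tumours had received anti-Lair1 (written anti-LAIR1 in what follows) together with anti-PD-1, and those of 3 tumours the control antibody anti-KLH together with anti-PD-1, so every tumour had been exposed to PD-1 blockade. Anti-LAIR1 blocks an inhibitory collagen receptor of leukocytes, anti-PD-1 blocks an inhibitory receptor of T cells, and anti-KLH is directed against a limpet protein that mice lack. The comparison asks what LAIR1 blockade added to PD-1 blockade.

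The series describes a pair of tumour models, and the labels do not say which of them these tumours were. In one, the lung cancer line 344SQ, derived from mice with K-rasLA1/+ and p53 R172H∆g/+ alleles, was grown under the skin of 129/Sv mice aged 6 to 8 weeks, male and female. Doses there were 10 mg/kg of anti-LAIR and 8 mg/kg of anti-PD-1, with anti-PD-1 given weekly and anti-LAIR more often. In the other, KrasLSL-G12D/p53fl/fl mice received Cre adenovirus into the trachea at 3 to 4 months of age, so that the lung tumours arise where the virus delivers Cre, and antibodies began 2 months later. For single mice, sex, age and batch are not stated in the labels. Mouse names begin with WTSV in all 4 treated mice and with LOHM (replicates 1 and 3) or KWM (replicate 2) in the controls. Whatever these prefixes stand for cannot be told apart from the treatment. Where nothing says more than that the mice were separate, p-values measure the spread between these 7 tumours.

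Total counts ran from 11480651 to 15347403 in anti-LAIR1 libraries and from 9879762 to 26255727 in controls, control replicate 1 being the deepest. Epithelial markers were abundant in every library, their 8 genes summing to 4850 to 5853 CPM (counts scaled to a common library size by TMM) with anti-LAIR1, against 4747 to 5885 CPM in controls. Of the lung lineage markers, Sftpb (1094 CPM or more in all 7), Nkx2-1 (158 CPM with anti-LAIR1, against 161 CPM in controls) and Foxa2 (91.2 against 90.6 CPM) were present. Sftpa1, Sftpd and Napsa averaged 0.908 to 2.87 CPM with anti-LAIR1, against 1.63 to 1.91 CPM in controls, and Sftpc and Scgb1a1 were too low to test. Skeletal muscle transcripts differed between libraries. The 12 muscle markers summed to 127, 16.0, 90.7 and 123 CPM in anti-LAIR1 replicates 1 to 4 and to 11.2, 13.7 and 15.3 CPM in control replicates 1 to 3.

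Cells continuously cut their own proteins in the proteasome, a barrel whose cutting is done by 3 constitutive catalytic subunits, Psmb5, Psmb6 and Psmb7. Interferon gamma induces a replacement for each of them, Psmb8 for Psmb5, Psmb9 for Psmb6 and Psmb10 for Psmb7, and the resulting immunoproteasome favours peptides whose ends fit MHC class I. Psme1 and Psme2 form the PA28 cap that opens the barrel, Tap1 and Tap2 form the transporter that carries peptides into the endoplasmic reticulum, tapasin (Tapbp) ties that transporter to empty class I molecules, Erap1 trims peptides to length, and Nlrc5 is the transactivator of class I genes. Leukocytes carry these proteins at rest, and tumour cells acquire them under interferon, so in a bulk tumour more cells of a type and more RNA per cell cannot be told apart.

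All 10 genes had a positive fold change with anti-LAIR1, by factors from 1.26 (Psme2) to 2.48 (Psmb8), against 49.1% of all genes with a positive one, but none passed the test and none separated the groups. The median log2 fold change was 0.83 over the 10 genes, against -0.00 over all 13545 genes tested. By edgeR's quasi-likelihood test with Benjamini-Hochberg adjustment over all genes tested, 0 of the 10 had an adjusted p under 0.05, the smallest being 0.934 (Erap1), and the same held for 0% of all genes. At an unadjusted p under 0.05, 2 of the 10 were higher (Psmb8 and Erap1) and 0 lower, against 3.51% of all genes higher and 5.15% in either direction. DESeq2 called 0 of the 10 against 0.388% of all genes, and limma voom 0 of the 10 against 0%. For 0 of the 10 did every treated library exceed every control, against 3.06% of all genes.

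Psmb8 (LMP7), the inducible counterpart of the chymotrypsin-like subunit, had 67.8, 32.8, 28.1 and 80.6 CPM in anti-LAIR1 replicates 1 to 4, against 32.7, 15.6 and 13.7 CPM in control replicates 1 to 3. Replicates 1 and 4 of the treated group stood well above the rest, and control replicate 1 lay level with treated replicate 2. The means were 52.3 ± 25.9 CPM with anti-LAIR1, against 20.7 ± 10.4 CPM in controls (SD, n = 4 and n = 3), a log2 fold change of 1.31 with a 95% interval from 0.18 to 2.44 (edgeR adjusted p = 0.940). Psmb9 (LMP2), which replaces the caspase-like subunit, had 25.3, 10.1, 8.38 and 26.1 CPM with anti-LAIR1, against 5.16 and 5.50 CPM in control replicates 2 and 3 and 13.7 CPM in control replicate 1. Its log2 fold change of 1.07 had an interval from -0.17 to 2.31. Psmb10 (MECL-1), which replaces the trypsin-like subunit, had 35.6, 22.8, 22.6 and 50.9 CPM with anti-LAIR1, against 31.0, 13.8 and 19.9 CPM in controls, and its log2 fold change was 0.60 (interval -0.25 to 1.46). Control replicate 1 exceeded treated replicate 3 for all 3 subunits, and treated replicate 2 as well for Psmb9 and Psmb10.

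**Figure D1:**
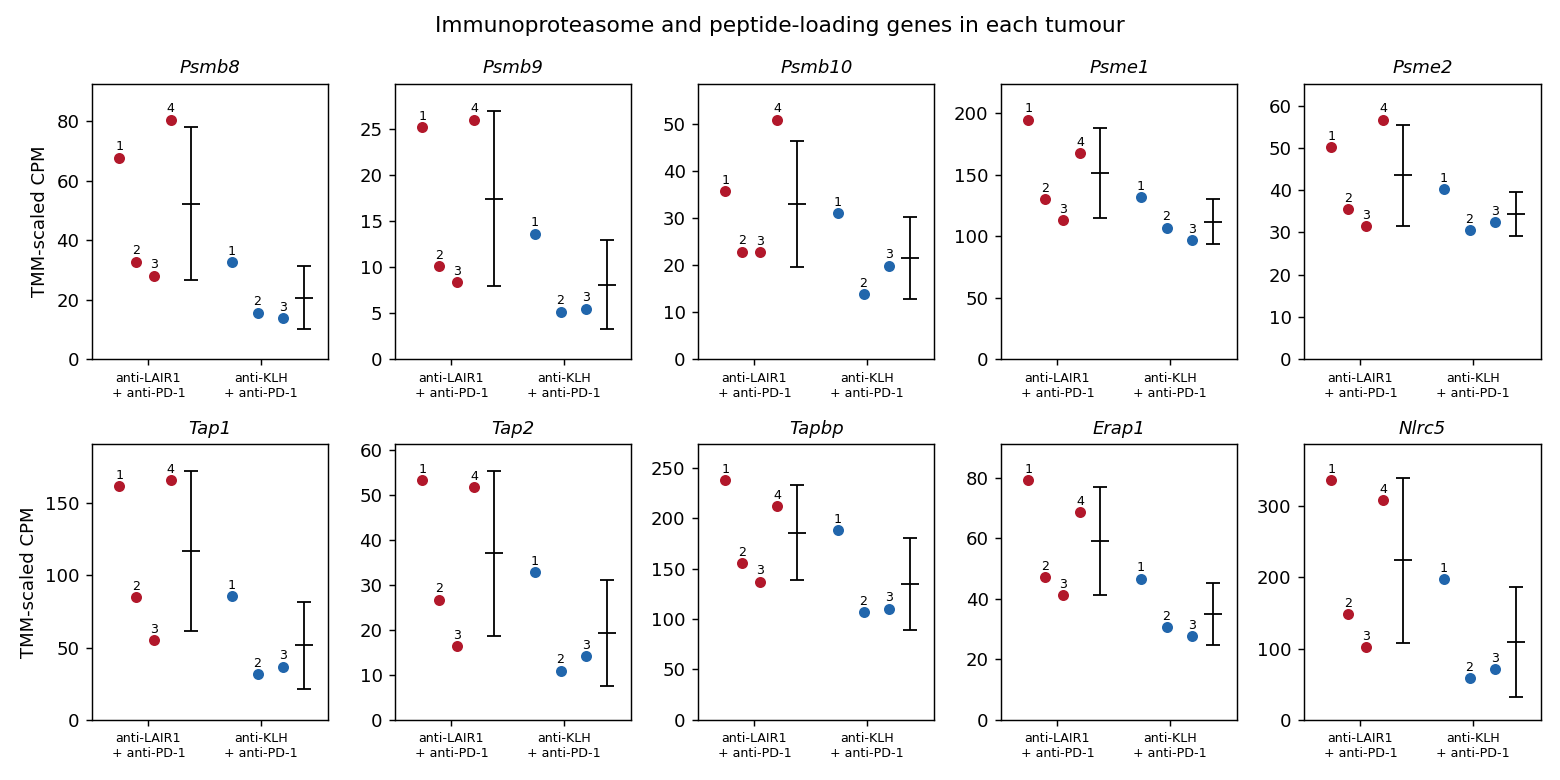
TMM-scaled CPM of each of the 10 genes on an axis from 0, one point per tumour numbered by replicate, anti-LAIR1 with anti-PD-1 (red) left of anti-KLH with anti-PD-1 (blue), with the group mean and SD as a black bar. In every panel anti-LAIR1 replicates 1 and 4 are the highest points and control replicate 1 is the highest control.

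The PA28 cap differed by less. Psme1 (PA28 alpha) had 195, 130.2, 113 and 167 CPM with anti-LAIR1, against 132, 107 and 96.4 CPM in controls, a log2 fold change of 0.44 (SE 0.19). Psme2 (PA28 beta) had 50.2, 35.5, 31.5 and 56.7 CPM with anti-LAIR1, against 40.3, 30.6 and 32.4 CPM in controls, a log2 fold change of 0.33 (SE 0.21). Treated replicate 3 was below control replicate 3 for Psme2, the single case among the 10 genes in which a treated library lay under either of the lower controls. Psme2b, a retrogene copy on chromosome 11, was counted at 3.56% to 6.77% of the Psme2 counts, and how reads shared by the copies were assigned is not stated.

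The transporter subunits had a wider range. Tap1 had 162, 85.1, 55.0 and 166 CPM in anti-LAIR1 replicates 1 to 4, against 85.9, 31.9 and 36.7 CPM in control replicates 1 to 3. The means were 117 ± 55.5 CPM with anti-LAIR1, against 51.5 ± 29.9 CPM in controls (SD, n = 4 and n = 3), a log2 fold change of 1.17 with an interval from -0.03 to 2.37 (edgeR adjusted p = 0.969). Tap2 had 53.2, 26.7, 16.4 and 51.7 CPM with anti-LAIR1, against 32.9, 10.9 and 14.1 CPM in controls, a log2 fold change of 0.91. Tap2 had the deepest overlap of the 10 genes, treated replicate 3 lying at 0.499 times control replicate 1.

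Tapasin and the trimming peptidase came next. Tapbp had 238, 156, 137 and 212 CPM with anti-LAIR1, against 188, 107 and 110.5 CPM in controls, with a log2 fold change of 0.46 (interval -0.15 to 1.06). Erap1 had 79.2, 47.2, 41.2 and 68.6 CPM with anti-LAIR1, against 46.7, 30.7 and 27.6 CPM in controls. Its groups came closest to separating: treated replicate 2 was above control replicate 1 and treated replicate 3 below it, at a ratio of 0.882. Its log2 fold change was 0.75, SE 0.27 (edgeR adjusted p = 0.934).

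Nlrc5, the transactivator of the class I genes, had 336, 148, 102 and 309 CPM in anti-LAIR1 replicates 1 to 4, against 198, 58.6 and 71.5 CPM in control replicates 1 to 3. Its range within the controls, 3.37-fold, was as wide as that within the treated group, 3.29-fold, and its log2 fold change of 1.02 had an interval from -0.34 to 2.39 (edgeR adjusted p = 0.980). Nlrc5, Tap1, Tap2, Psmb8 and Psmb9 each spanned between 4.87-fold and 5.86-fold from the lowest to the highest of the 7 libraries. Psmb10 and Erap1 spanned 3.69-fold and 2.87-fold, and Tapbp, Psme1 and Psme2 between 1.85-fold and 2.22-fold. A span above 2-fold was found for 9 of the 10 genes and for 8.54% of the 8714 tested genes expressed at or above the lowest member, whose median span was 1.34-fold.

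The 10 genes moved together from tumour to tumour. Anti-LAIR1 replicates 1 and 4 were the top pair of libraries for 10 of 10 genes, an order shared by 7.12% of all genes tested. Control replicate 1 was the highest control for 10 of 10 genes, against 39.3% of all genes, and both features held together for 3.74% of all genes. The median gene stood at 2.51, 1.30, 1.02 and 2.52 times the control mean in anti-LAIR1 replicates 1 to 4, and at 1.51, 0.698 and 0.761 times in control replicates 1 to 3. The 10 genes summed to 1242, 694, 556 and 1189 CPM in the treated libraries, against 801, 411 and 428 CPM in the controls. Treated replicate 3 thus held a summed level below that of control replicate 1.

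**Figure D2:**
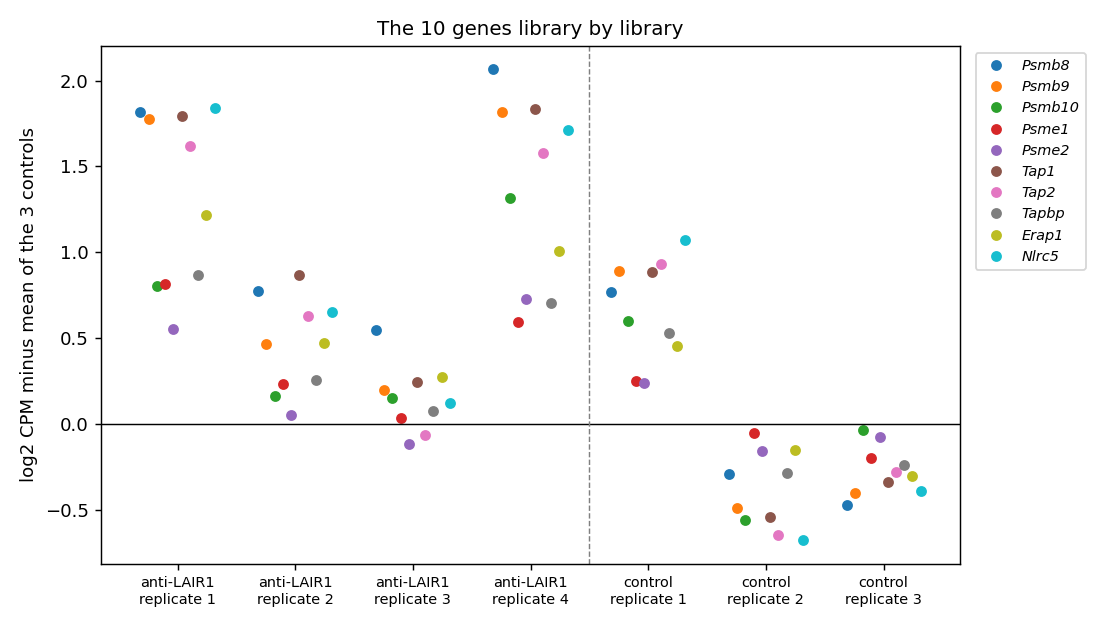
Log2 CPM of each gene minus its mean over the 3 controls (vertical axis) in each library (horizontal axis), anti-LAIR1 libraries left of the dashed line and controls right of it, one colour per gene. All 10 points lie above 0 in anti-LAIR1 replicates 1, 2 and 4 and in control replicate 1, and all 10 lie below 0 in control replicates 2 and 3.

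Without control replicate 1 the picture changed in size and not in adjusted significance. The median log2 fold change over the 10 genes became 1.29, and the largest were 1.83 for Psmb8, 1.78 for Nlrc5, 1.77 for Tap1 and 1.71 for Psmb9. All but Psme2 then separated the groups, 9 of 10 genes against 8% of all genes tested. With an unadjusted p under 0.05 there were 9 of 10 genes against 3.61% of all genes, and edgeR's adjusted p was 0.820 or more for each of the 10. Control replicate 1 was the highest control for all 10 genes, against 39.3% of all genes. Larger fold changes, more separation and smaller unadjusted p-values without it could therefore be foreseen. The shares over all genes are for that reason not a like comparison. At the same unadjusted edgeR cut, 0 of 10 were counted without anti-LAIR1 replicate 1 or 4, or without control replicate 2 or 3. There were 3 without anti-LAIR1 replicate 2 and 8 without anti-LAIR1 replicate 3. In these fits 2.33% to 4.20% of all genes were higher. Control replicate 3 carries the same name prefix as control replicate 1 and had low levels of all 10 genes. A relation between prefix and level was not tested, and 3 controls are too few to show one.

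The constitutive proteasome was measured beside the inducible one. Psmb5 had 9.02 to 12.7 CPM with anti-LAIR1, against 9.30 to 12.1 CPM in controls, and Psmb6 had 57.6 to 64.0 CPM with anti-LAIR1, against 57.6 to 63.2 CPM in controls. Psmb7 had 41.3 to 44.6 CPM with anti-LAIR1, against 32.6 to 40.3 CPM in controls, which did not overlap. Their log2 fold changes were 0.04 (interval -0.34 to 0.42), 0.02 (-0.17 to 0.21) and 0.21 (-0.02 to 0.45). The other 11 subunits of the 20S core all had small positive fold changes, with a median of 0.10 and a largest value of 0.18, and 0 of 11 had an unadjusted p under 0.05. These positive signs were not a feature of every setting: without control replicate 1 the medians were -0.02 for the catalytic subunits and 0.04 for the rest of the core. The 17 subunits of the 19S cap, which unfolds ubiquitin-tagged proteins, ran from -0.12 to 0.16 with 0 of 17 at an unadjusted p under 0.05. The other proteasome activators Psme3 and Psme4 and the inhibitor Psmf1 lay between -0.03 and 0.01. Among the 5 assembly chaperones, including Pomp, which helps to build the immunoproteasome, fold changes ran from -0.04 to 0.22.

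**Figure D3:**
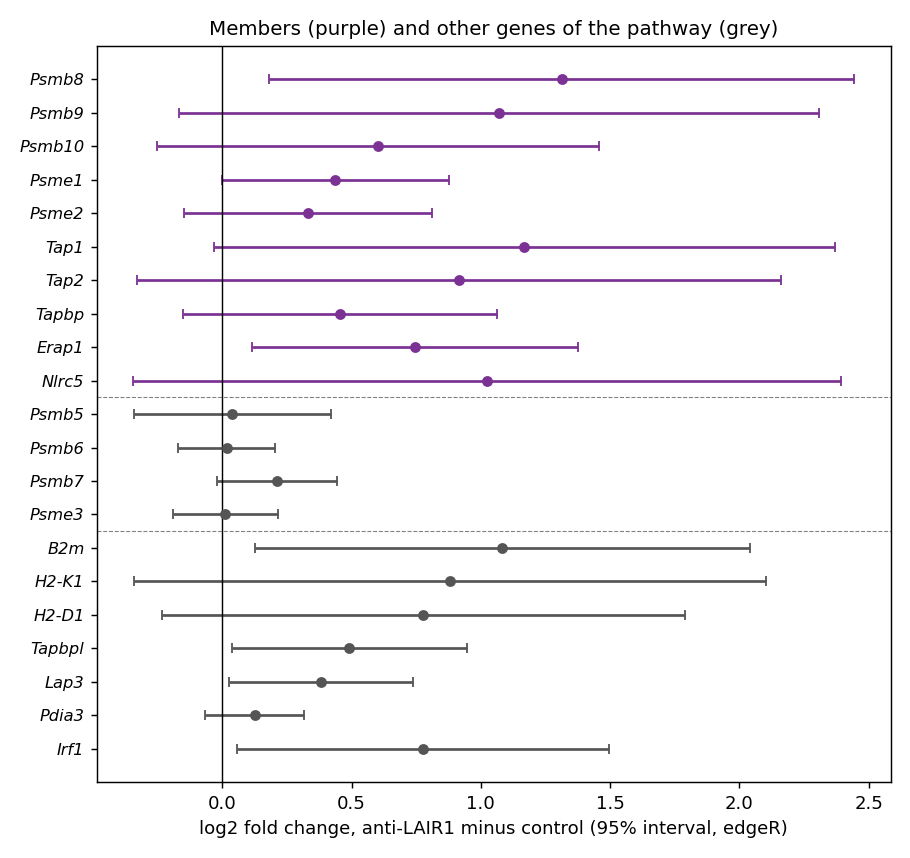
Log2 fold changes, anti-LAIR1 minus control, with 95% intervals from the edgeR fit of all genes. The 10 genes are in purple above Psmb5, Psmb6, Psmb7, Psme3 and other class I pathway genes in grey. Points of the 10 genes lie from 0.33 to 1.31 with wide intervals, and those of Psmb5, Psmb6, Psmb7 and Psme3 from 0.01 to 0.21 with narrow ones.

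Setting each inducible catalytic subunit against its counterpart, and the PA28 cap genes against Psme3, within the same library removes library scaling. The log2 ratio of Psmb8 to Psmb5 counts was 2.90, 1.61, 1.22 and 2.66 in anti-LAIR1 replicates 1 to 4, against 1.81, 0.49 and 0.18 in control replicates 1 to 3. The difference of 1.27 did not pass an exact two-sided permutation test (p = 0.143, adjusted over the 4 ratios 0.305). Psmb9 to Psmb6 averaged -1.98 ± 0.85 with anti-LAIR1 and -3.03 ± 0.83 in controls (SD, n = 4 and n = 3), a difference of 1.06 (exact permutation p = 0.171, adjusted 0.305). Psmb10 to Psmb7 averaged -0.48 ± 0.53 with anti-LAIR1 and -0.88 ± 0.75 in controls, a difference of 0.39 (exact permutation p = 0.457). The summed PA28 cap genes over Psme3, the nuclear PA28 gamma, averaged 0.63 ± 0.32 with anti-LAIR1 and 0.25 ± 0.34 in controls (exact permutation p = 0.229, adjusted 0.305). The smallest p that 4 against 3 tumours allow is 0.0286.

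**Figure D4:**
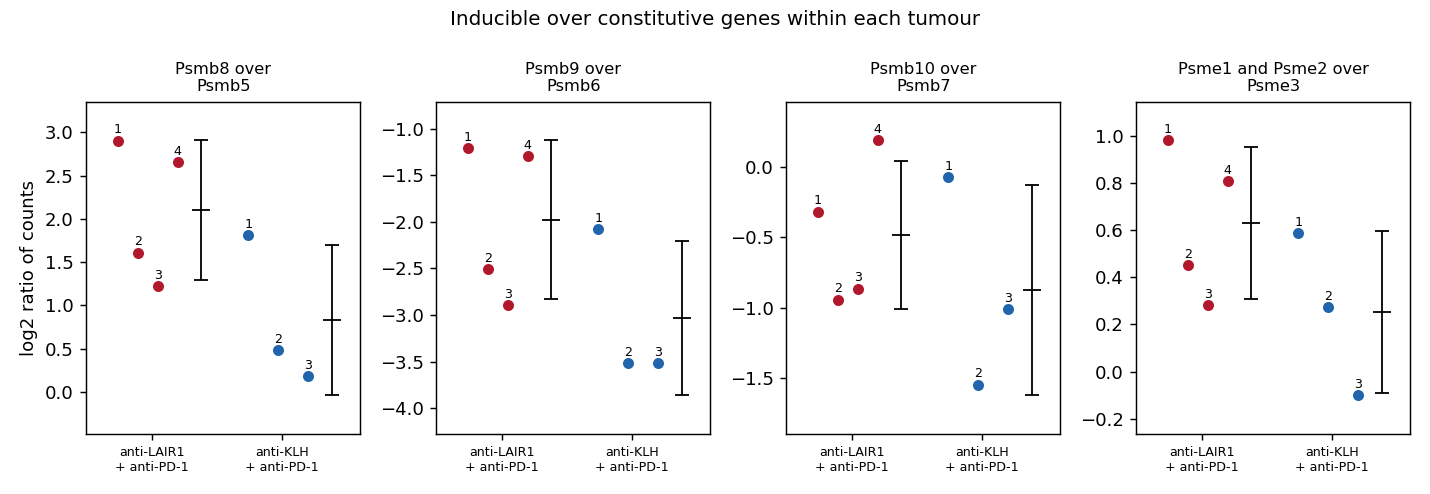
Log2 ratio of counts (vertical axis) in each tumour, numbered by replicate, anti-LAIR1 in red left of control in blue, with mean and SD as a black bar. Inducible catalytic subunits are set against their constitutive counterparts, and in the last panel Psme1 and Psme2 summed against Psme3. In all 4 panels anti-LAIR1 replicates 1 and 4 and control replicate 1 lie high, and the groups overlap.

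Compared per kilobase of the principal GENCODE transcript, levels of the subunits could be set against each other. Psmb8 averaged 32.1 ± 15.9 CPM per kilobase with anti-LAIR1 and 12.7 ± 6.41 in controls (SD, n = 4 and n = 3), while Psmb5 averaged 12.4 ± 1.80 with anti-LAIR1 and 12.1 ± 1.59 in controls. The level of Psmb8 exceeded that of Psmb5 in 4 of 4 treated tumours and in 1 of 3 controls, control replicate 1. Psmb9, at 12.9 ± 7.04 CPM per kilobase with anti-LAIR1 and 6.00 ± 3.56 in controls, was below Psmb6 in all 7 tumours, where Psmb6 averaged 76.0 ± 3.89 with anti-LAIR1 and 75.2 ± 3.61 in controls. The level of Psmb10 exceeded that of Psmb7 in 1 of 4 treated tumours and 0 of 3 controls. Which transcript a tumour uses is not known from gene counts, so the order of Psmb8 and Psmb5, and of Psmb10 and Psmb7, depends on the length taken. The principal transcripts measure 1628 (Psmb8), 899 (Psmb5), 1311 (Psmb10) and 1160 bases (Psmb7). All annotated exons together measure 3381, 899, 1705 and 3421 bases. With those lengths Psmb8 would exceed Psmb5 in fewer tumours, and Psmb10 would exceed Psmb7 in more.

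Of the 10 genes, 5 lie in the MHC region of chromosome 17 (GRCm38, GENCODE M21). Psmb9 (34181987 to 34187764, minus strand), Tap1 (34187553 to 34197225), Psmb8 (34197721 to 34201454) and Tap2 (34203527 to 34216321, all on the plus strand) fill 34335 bases, and Tapbp lies apart at 33915899 to 33929292. Psme1 (55578123 to 55581529) and Psme2 (55587441 to 55591113) are neighbours on chromosome 14, Erap1 (74639568 to 74693201) is on chromosome 13, and Nlrc5 (94434356 to 94527272) and Psmb10 (105935735 to 105938444) are on chromosome 8. Psmb9 and Tap1 are transcribed away from each other, their RefSeq starts 226 bases apart, and in GENCODE their exons overlap by 212 bases on opposite strands, 5.79% of the Psmb9 exons. The library kit kept strand, but the strand setting of the counting is not given, so reads in that overlap are uncertain. The same holds for Erap1, of which 11.5% of exon bases overlap Cast on the opposite strand. For Tapbp, 4.11% overlap Zbtb22 on the same strand. Reads are also uncertain where genes on the opposite strand that have no row among the counts overlap a member. These cover 14.7% of Psmb8 (Gm20496), 24.9% of Tapbp (Gm19412), and 14.1% (Gm15821) and 4.36% (Gm20496) of Tap2.

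Promoter windows, 250 bases before to 50 after the RefSeq start (GRCm38.p6, the C57BL/6J reference), were held for 8 of the 10 genes in 9 windows. RefSeq and GENCODE starts can differ: the windows of Psmb8, Psmb9, Psme1, Erap1 and Tapbp begin inside the GENCODE gene bounds given above. The Tap1 window is shown because it is shared with Psmb9: the Psmb9 window covers 275 of the same bases on the other strand. Psmb8, Psme1 and Erap1 are shown because these windows held a match to an interferon-type motif. Capitals mark matches, on either strand, to the interferon-stimulated response element core (GAAA, 2 bases of any kind, GAAA), the gamma-activated site TTCNNNGAA or the Y box CCAAT, which is part of class I promoters.
Tap1, chr17:34187306-34187605, plus strand: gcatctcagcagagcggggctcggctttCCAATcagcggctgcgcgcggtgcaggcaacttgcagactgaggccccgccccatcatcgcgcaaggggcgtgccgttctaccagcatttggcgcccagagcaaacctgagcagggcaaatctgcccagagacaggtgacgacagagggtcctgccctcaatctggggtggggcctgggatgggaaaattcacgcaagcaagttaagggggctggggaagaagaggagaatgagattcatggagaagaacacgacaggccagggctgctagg
Psmb8, chr17:34197945-34198244, plus strand: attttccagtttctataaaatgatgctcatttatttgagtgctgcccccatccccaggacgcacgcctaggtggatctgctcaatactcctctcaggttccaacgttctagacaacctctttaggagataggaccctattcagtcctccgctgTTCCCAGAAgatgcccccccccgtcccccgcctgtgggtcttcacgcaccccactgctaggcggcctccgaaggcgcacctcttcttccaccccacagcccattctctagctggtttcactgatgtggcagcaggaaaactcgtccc
Psme1, chr14:55578244-55578543, plus strand: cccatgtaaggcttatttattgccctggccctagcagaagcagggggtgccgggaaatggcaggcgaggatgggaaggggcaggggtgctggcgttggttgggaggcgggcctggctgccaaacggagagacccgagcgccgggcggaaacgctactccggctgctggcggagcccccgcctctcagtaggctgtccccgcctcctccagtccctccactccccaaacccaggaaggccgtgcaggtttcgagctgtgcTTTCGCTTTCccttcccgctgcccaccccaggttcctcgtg
Erap1, chr13:74639603-74639902, plus strand: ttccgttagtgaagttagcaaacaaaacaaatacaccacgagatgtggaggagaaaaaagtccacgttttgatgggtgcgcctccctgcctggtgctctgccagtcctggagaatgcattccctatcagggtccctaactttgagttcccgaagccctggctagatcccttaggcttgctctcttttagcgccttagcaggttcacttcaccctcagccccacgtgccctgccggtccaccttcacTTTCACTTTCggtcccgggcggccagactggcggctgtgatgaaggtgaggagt

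The response element core was matched in the Erap1 window, where it spans the start, and in the Psme1 window just after the start, and in 3.44% of all 32851 windows. The gamma-activated site was matched in Psmb8, its first base 97 bases before the start, and in 8.30% of all windows. The Y box was matched in Tap1, Psmb9 and Tapbp, and in 37.4% of all windows. The Tap1 and Psmb9 matches are the same bases read on opposite strands. A looser kappa B core (GGG, 5 bases of any kind, CC) was matched in 4 of the 8 genes and in 50.8% of all windows. Tap1 and Psmb9, both among the 4, again share the same sites. The windows of Tap1, Psmb9, Psmb10, Psme2 and Tapbp held neither interferon-type motif. Whether a motif goes with the range of a gene was not tested. These matches describe letters only and were not set against binding data.

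Among the other genes of the class I pathway, the class I chains had fold changes of the size of the 10 genes and most general chaperones had small ones. Beta-2-microglobulin (B2m), the light chain of class I molecules, had 1649, 913, 619 and 1228 CPM with anti-LAIR1, against 801, 402 and 357 CPM in controls, with a log2 fold change of 1.08 (SE 0.41). The heavy chains H2-K1 and H2-D1 had log2 fold changes of 0.88 and 0.78, and H2-K1 was likewise highest in treated replicates 1 and 4 and lowest in control replicates 2 and 3. All 6 tested class I chains were positive, with a median of 0.83. The further chains H2-Q6, H2-Q7 and H2-T22 are listed at 0 in all 7 libraries. Among the general chaperones that also serve the loading complex, Calr, Canx, Pdia3, Hspa5 and Pdia6 lay between -0.03 and 0.16, and Tapbpl (TAPBPR), the dedicated peptide editor related to tapasin, averaged 19.3 ± 3.88 CPM with anti-LAIR1, against 13.6 ± 3.11 CPM in controls (SD, n = 4 and n = 3). The Tapbpl log2 fold change was 0.49, and its groups overlapped. Of 7 cytosolic and other peptidases, Lap3, an interferon-inducible leucine aminopeptidase, had the largest value, 0.38, and Npepps the lowest, -0.21. Of these 7, 1 was higher at an unadjusted p under 0.05 and 0 lower, against 3.51% of all genes higher. None of the genes named in these pathway lists passed edgeR's adjusted test.

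Of 16 transcriptional regulators of class I genes, 2 were higher at an unadjusted p under 0.05 and 0 lower, with a median log2 fold change of 0.12. Irf1, which binds class I and immunoproteasome promoters, had 196, 113, 99.9 and 167 CPM with anti-LAIR1, against 119, 69.5 and 62.0 CPM in controls (log2 fold change 0.78). Stat2, which carries type I interferon signals to the nucleus, had a log2 fold change of 0.58. Rfx5, Rfxap and Rfxank, the partners that bring Nlrc5 to promoters, had 0.22, -0.09 and -0.23, and the Rfxank groups did not overlap, the treated one being lower. Ifng itself was too low to test, with 0.266 to 0.727 CPM with anti-LAIR1, against 0 to 0.436 CPM in controls, where 3 counts are worth 0.119 to 0.305 CPM. Socs1, a feedback inhibitor induced by interferon, had 3.54 to 9.81 CPM with anti-LAIR1, against 1.87 to 3.52 CPM in controls, which did not overlap (log2 fold change 1.06, edgeR adjusted p = 0.933). The interferon gamma receptor and kinase genes Ifngr1, Ifngr2, Jak1 and Jak2 lay between -0.11 and 0.12.

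Leukocyte markers also had positive fold changes, although 0 of the 17 pan-leukocyte markers passed edgeR's adjusted test. All 17 were positive, with a median log2 fold change of 0.51, and their summed level was 494, 396, 392 and 476 CPM in anti-LAIR1 replicates 1 to 4, against 339, 308 and 298 CPM in control replicates 1 to 3, which did not overlap. Of these 17, 8 were higher at an unadjusted p under 0.05, against 3.51% of all genes, and Itgb2 and Lsp1 had log2 fold changes of 0.03 and 0.06. Ptprc (CD45) had 48.2, 34.1, 31.3 and 56.7 CPM with anti-LAIR1, against 28.3, 24.2 and 24.9 CPM in controls. The 7 measured T cell markers summed to 31.9, 12.9, 5.27 and 28.8 CPM in the treated libraries, against 13.5, 2.99 and 4.28 CPM in the controls. That is the same order of the 7 libraries as for the summed level of the 10 genes, from treated replicate 1 down to control replicate 2. The T cell values were low: Cd3d and Cd2 were not tested, and Cd3g had 2 counts in control replicate 3. The order was not particular to T cells. The summed class I chains had it too, apart from control replicates 2 and 3, at 932 and 917 CPM. The 10 macrophage and monocyte markers summed to 455 to 575 CPM with anti-LAIR1, against 344 to 538 CPM in controls, and none of these marker genes was at 0 in all libraries. Cd3g, a chain of the T cell receptor complex, had 1.21 to 3.56 CPM with anti-LAIR1, against 0.204 to 1.54 CPM in controls. With the mean leukocyte level of each library as a covariate, the log2 fold changes of all 10 genes turned negative, with a median of -0.49 (from -0.84 for Tap2 to -0.12 for Erap1), and none passed edgeR's adjusted test. The covariate itself separated the groups, so that fit could not tell the leukocyte level from the treatment.

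**Figure D5:**
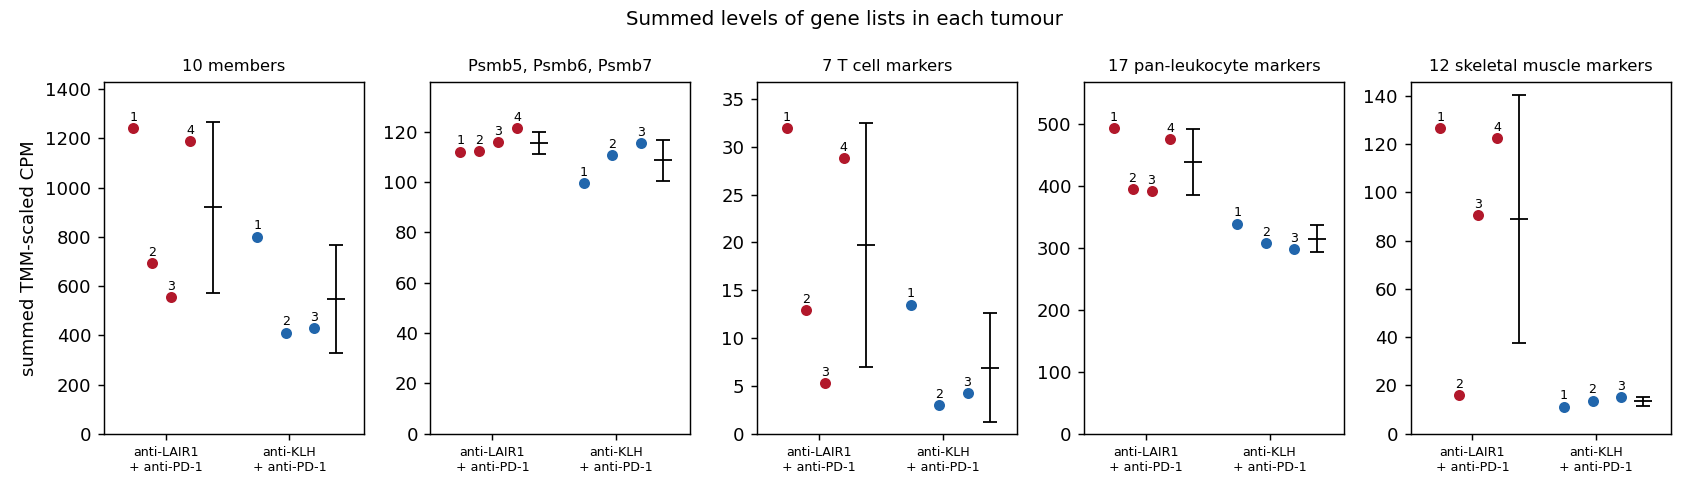
Summed TMM-scaled CPM (vertical axes from 0) of the 10 genes, the constitutive catalytic subunits, and T cell, pan-leukocyte and skeletal muscle markers in each tumour, numbered by replicate, anti-LAIR1 in red left of control in blue, with mean and SD as a black bar. The T cell panel repeats the library order of the 10 genes, the constitutive panel is nearly level at 99.5 to 121 CPM, and muscle is high in anti-LAIR1 replicates 1, 3 and 4.

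Muscle level shared part of that order. Anti-LAIR1 replicates 1 and 4 were the top pair for muscle as for the 10 genes, while treated replicate 3 was high in muscle and low in the 10 genes, and control replicate 1 was the lowest of all 7 in muscle. With the mean muscle level as a covariate the median log2 fold change over the 10 genes was 0.34, and 0 of 10 were higher at an unadjusted p under 0.05, against 1.30% of all genes in that fit and 3.51% without the covariate. The mean log2 muscle level was 0.60 to 0.90 in anti-LAIR1 replicates 1, 3 and 4, and -1.24 in anti-LAIR1 replicate 2. In controls it was -1.34 to -1.09. The muscle level thus largely followed the treatment, and the fit could hardly tell them apart. How far muscle or leukocyte content contributed to the difference between the groups was not tested beyond these fits.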

How the data were processed

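The authors deposited raw read counts per gene symbol, 1 column per tumour. The submitters' processing notes name the build mm10 and, with no roles, edgeR 3.40.1, STAR 2.7.6, featureCounts 2.0.1 and Trim Galore; which annotation and strand setting produced the deposited counts is not stated there. Here edgeR 4.0.16 under R 4.3.3 was applied to those counts: filterByExpr at a minimum count of 10 left 13545 genes, TMM scaled the libraries, and a robust quasi-likelihood fit of all 7 without covariate gave differences, with Benjamini-Hochberg adjustment over all genes tested and a threshold of 0.05. CPM uses TMM-scaled totals. DESeq2 1.42.0 and limma 3.58.1 were alternatives, as were other scaling and filters, muscle or leukocyte level as a covariate, a ratio pseudocount of 2, and leaving out each library. Ratios of counts used a pseudocount of 0.5 and an exact permutation test over 35 splits. The fit was tested on simulated data. Depth ran from 9879762 to 26255727 counts a library, and 3 counts were worth 0.119 to 0.305 CPM. The 10 genes and all lists were chosen with earlier results of these data known. Named genes were the 10, Psmb5, Psmb6, Psmb7, Psme3, Ifng, Irf1, B2m, H2-K1, H2-D1 and Ptprc, and up to 2 genes with the smallest p per list. Other genes named belong to those lists and were picked after their values were seen. Of the T cell list and the peptidase list, 3 symbols and 1 symbol had no row. A further gene of the naming rule is not reported here. Figures were drawn with matplotlib 3.10.9.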

Additional observations from a re-analysis of the deposited data

How the results depend on the processing

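Over 15 alternative settings the 10 genes kept a positive log2 fold change in 140 of 150 values, and 0 of 150 had an adjusted p under 0.05. The exceptions all came with the leukocyte level as a covariate: Psmb8 -0.30, Psmb9 -0.77, Psmb10 -0.61, Psme1 -0.19, Psme2 -0.48, Tap1 -0.50, Tap2 -0.84, Tapbp -0.32, Erap1 -0.12 and Nlrc5 -0.80, with a median of -0.49. That covariate separates the groups. Without single libraries the median over the 10 genes ran from 0.64 to 1.29, the differences in log2 ratio from 0.95 to 1.77 for Psmb8 over Psmb5, 0.80 to 1.53 for Psmb9 over Psmb6, 0.06 to 0.80 for Psmb10 over Psmb7 and 0.20 to 0.54 for the PA28 genes over Psme3. With 6 libraries the smallest exact p is 0.0667 or 0.10, so those fits cannot pass. Over the whole table edgeR called 0 genes, and 0 to 3 without single libraries (3 without anti-LAIR1 replicate 2), while DESeq2 called 54; 697 genes had an unadjusted edgeR p under 0.05. No paired analysis was possible because the labels carry no replicate numbers: the numbers used here follow the order of the samples, name separate mice and pair none across groups.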
